A study of Mus musculus with 2 samples.

Results

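Abundant transcripts that still carried provisional names, either Gm followed by digits or a RIKEN clone name ending in Rik, were examined in scRNA-Seq of spinal microglia. Abundance was counted in unique molecular identifiers (UMIs, each counting 1 captured RNA molecule). Members were the symbols of these 2 forms with at least 200 UMIs summed over the kept cells of both libraries. Of 11045 such symbols in the table, 4804 had at least 1 UMI in the kept cells and 197 reached the limit, 118 with Gm names and 79 with Rik names. Across the whole table, 4887 of 32285 genes reached it. Just inside the limit stood Gm37168 and Gm7480, each with 200 UMIs, and just outside stood 0610010F05Rik and 4931422A03Rik, each with 198.

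The study asked what loss of 4E-BP1, a repressor of cap-dependent translation, does to microglia. Microglia were sorted as CD45lo CD11b+ CX3CR1+ cells from the lumbar spinal cord of adult male mice. The control library came from Eif4ebp1 fl/fl mice, which carry the floxed alleles without Cre, and the 4E-BP1–cKO library from Eif4ebp1 fl/fl:TMEM119 CreERT2 mice, in which the microglial Tmem119 promoter drives a tamoxifen-inducible Cre; 4-hydroxytamoxifen was injected in early postnatal life. There was 1 library per genotype, how many mice each held was not given in the sources used here, and genotype and library therefore cannot be told apart. No test between genotypes was possible, and every interval below is a 95% interval that covers counting error only.

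Most provisional names belong to long noncoding RNAs (lncRNAs), transcripts over a set minimum length that encode no known protein, many of them nuclear and transcribed from the strand opposite a protein-coding gene. Others belong to coding genes named only later, and a few to copies of ribosomal RNA or ribosomal protein genes. In a droplet library, the share of UMIs from ribosomal protein genes, which encode the proteins of the cytoplasmic ribosome, differs widely between cells and separates cells rich in these mRNAs from cells poor in them.

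Kept cells numbered 1147 in the control and 445 in the 4E-BP1–cKO library, with 4803562 and 1734332 UMIs, and no kept barcode was shared. A ribosomal protein share under 2.5% of UMIs defined the ribosome-poor class, which held 620 control cells (54.1%, exact binomial interval 51.1 to 57.0) and 195 4E-BP1–cKO cells (43.8%, 39.2 to 48.6). Depth moved with class, since the median was 2356 UMIs in ribosome-poor against 5482 in other control cells, and 1898 against 4700 in 4E-BP1–cKO cells. Near the limit, 144 of the 1592 cells had a share from 2 to 3%. At least 3 of 11 microglial markers were found in 88.2% to 96.4% of cells in the 4 library and class groups, and their summed level was 6662 CPM (UMIs per 1000000 UMIs of the group) in ribosome-poor and 12767 in other control cells, and 6497 and 11694 in 4E-BP1–cKO cells. In the 10 marker lists of other cell types, at most 0.57% of cells of any group had 3 markers (both of 2 for the shortest lists), and no list summed to more than 119 CPM. The 3′ reads of Eif4ebp1 do not check the floxed deletion, and its 146 UMIs gave log2 0.55 for 4E-BP1–cKO over control.

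Of the 197 members, 185 were found by Ensembl ID in the GENCODE vM39 annotation, 149 as lncRNA and 36 as protein-coding genes, and 23 now have another name. Members made up 2.84% of control and 2.32% of 4E-BP1–cKO UMIs, and a single one, Gm42418, held 31% of the 176814 member UMIs. The median member had 446 UMIs.

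Many members differed in level between the ribosomal classes, and most of those high in ribosome-poor cells were lncRNAs lying opposite coding genes. The 3′ ends of the 8 most abundant such members are shown because the droplet method captures transcripts by their 3′ tails. Each line holds the final 60 bases of the canonical GENCODE vM39 transcript, 5′ to 3′, with the first polyadenylation signal (AATAAA or ATTAAA) within 40 bases of the end in capitals.
Gm35188: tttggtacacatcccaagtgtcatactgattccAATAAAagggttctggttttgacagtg
Gm16337: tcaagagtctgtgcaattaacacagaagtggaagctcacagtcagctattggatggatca
Gm14023: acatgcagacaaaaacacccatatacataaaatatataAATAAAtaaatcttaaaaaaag
Gm32036: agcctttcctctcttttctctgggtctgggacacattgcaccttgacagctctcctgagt
Gm46367: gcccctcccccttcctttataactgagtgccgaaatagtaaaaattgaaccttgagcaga
Gm15283: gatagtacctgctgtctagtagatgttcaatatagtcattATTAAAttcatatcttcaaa
5330438D12Rik: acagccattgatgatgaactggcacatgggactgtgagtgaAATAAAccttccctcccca
Gm13684: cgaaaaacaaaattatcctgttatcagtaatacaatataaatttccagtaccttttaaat

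These 8 genes lie on chromosomes 2 (Gm14023, Gm13684), 3 (Gm16337), 10 (5330438D12Rik), 12 (Gm35188, Gm46367, Gm15283) and 13 (Gm32036). A signal of these letters was present in 4 of the 8. Among all 67 lncRNA members called higher in ribosome-poor cells (below), 27 had one (40.3%), against 48 of 82 other lncRNA members (58.5%) and 55.1% of all 32884 lncRNA genes of the annotation. The annotated transcripts of the 67 had a median of 763 bases, against 1117 for the other lncRNA members and 698 for all lncRNA genes of the annotation. The median exon number was 3 in both groups of members. These are descriptions of annotated models, and a missing match says only that the letters are not in this window.

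No member was confined to ribosome-poor cells. With confined taken as at least 95% of a gene's UMIs in that class in each library, 0 of 197 members passed, and the share over all 4887 tested genes was 0%. A gene spread evenly over the molecules would have 34.6% of its UMIs there in the control and 26.5% in the 4E-BP1–cKO library. Gm43221 came nearest, with 655 of 851 control UMIs (77.0%) and 173 of 218 4E-BP1–cKO UMIs (79.4%) in ribosome-poor cells. Gm7480 reached 86.5% in the 4E-BP1–cKO library, on 37 UMIs, but 70.6% in the control. In cells of 1500 to 4000 UMIs, a window chosen after seeing the data in which the class medians lay closer, Gm21057 was the 1 member that passed, with 161 of 169 and 30 of 31 UMIs, against a background of 0.102% of tested genes. An even spread would there put 82.0% of a gene's UMIs in ribosome-poor cells in the control and 60.5% in the 4E-BP1–cKO library. Few cells in the window were of the other class, 83 beside 415 ribosome-poor control cells and 56 beside 103 ribosome-poor 4E-BP1–cKO cells.

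Many members were nevertheless several-fold higher in ribosome-poor cells. By CPM, 71 of 197 members were over 2-fold higher there than in other cells in both libraries (36.0%), against a background of 2.93% of all tested genes. Members supplied 49.7% of the 143 genes that passed, and 1.54% of the 4690 tested genes that are not members did so. In the other direction 7 members were over 2-fold lower in both libraries, against a background of 10.2%. With ribosomal protein and mitochondrial genes left out of the CPM totals, 70 were higher and 7 lower, against backgrounds of 2.54% and 11.2%.

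**Figure D1:**
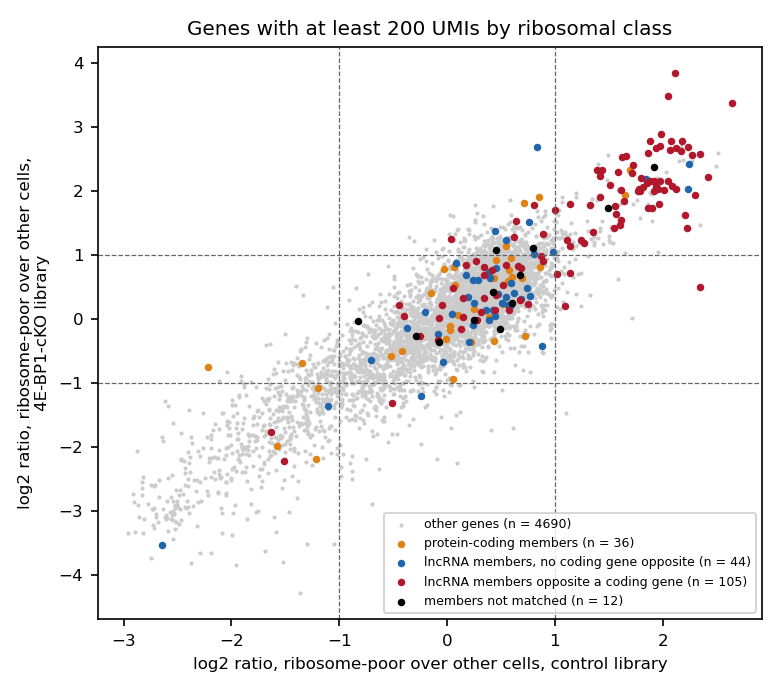
Log2 ratio of CPM in ribosome-poor over other cells for each gene with at least 200 UMIs, in the control (x axis) and the 4E-BP1–cKO library (y axis); dashed lines mark 2-fold, and colors give the members' annotation. Of the 71 members in the upper right corner, 64 are lncRNAs opposite a coding gene (red).

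The lncRNA members fell around 2 levels of this ratio. Averaged over both libraries, 30 of 149 had a log2 ratio from 0 to 0.5, 27 from 0.5 to 1, 14 from 1 to 1.5, 27 from 1.5 to 2 and 30 from 2 to 2.5. Over all 197 members the median log2 ratios were 0.63 in the control and 0.81 in the 4E-BP1–cKO library, and those of all tested genes 0.19 in both. Medians of the 71 were 1.86 and 2.10, but the 71 were selected on this ratio, so high medians are built in. Closest to the limit, Gm20536 was inside with log2 1.01 and 1.71, and Gm26532 outside with 0.98 and 1.05.

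Gm35188, an lncRNA opposite Arhgap5 (a GTPase-activating protein), was the most abundant of the 71. Its level was 930 CPM in ribosome-poor and 207 CPM in other control cells, and 843 and 137 CPM in 4E-BP1–cKO cells. Ratios were 4.50 (4.11 to 4.94) and 6.17 (5.15 to 7.42). Gm16337, within Pag1 (a membrane adaptor that recruits the kinase Csk), stood at 780 and 203 CPM in control and 606 and 94.2 CPM in 4E-BP1–cKO cells. Gm14023, opposite Il1a (the cytokine interleukin-1α) at chr2:129297370-129307826 of GRCm38.p6 in RefSeq, stood at 644 and 186 CPM and at 762 and 190 CPM. For each of these 3 genes both ribosome-poor values were above both values of the other class. The 3 are among the 71 members selected for their class ratio in these same cells. The order of the classes within each library is therefore built in, and the values are a description.

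The 5 members with the largest class ratios were Gm43221, Gm7480, Gm29361, Gm34408 and Gm47167, each opposite a coding gene. Gm43221, at chr3:109000723-109006355 of GRCm38.p6 and opposite Eeig2, had 394 and 62.4 CPM in control and 376 and 35.3 CPM in 4E-BP1–cKO cells, ratios of 6.32 (5.38 to 7.45) and 10.6 (7.62 to 15.1). Gm7480, opposite Lrmda, had 69.2 and 15.3 CPM in the control and 69.5 and 3.92 CPM in the 4E-BP1–cKO library. The last of these values was 5 UMIs, which left the ratio of 17.7 with an interval of 6.85 to 58.2. Gm29361, opposite the splicing regulator Rbm25, rested on a similar number of molecules, 8 UMIs in other 4E-BP1–cKO cells. Gm34408 and Gm47167 had ratios of 4.61 and 4.80 in the control and 7.08 and 6.57 in the 4E-BP1–cKO library.

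**Figure D2:**
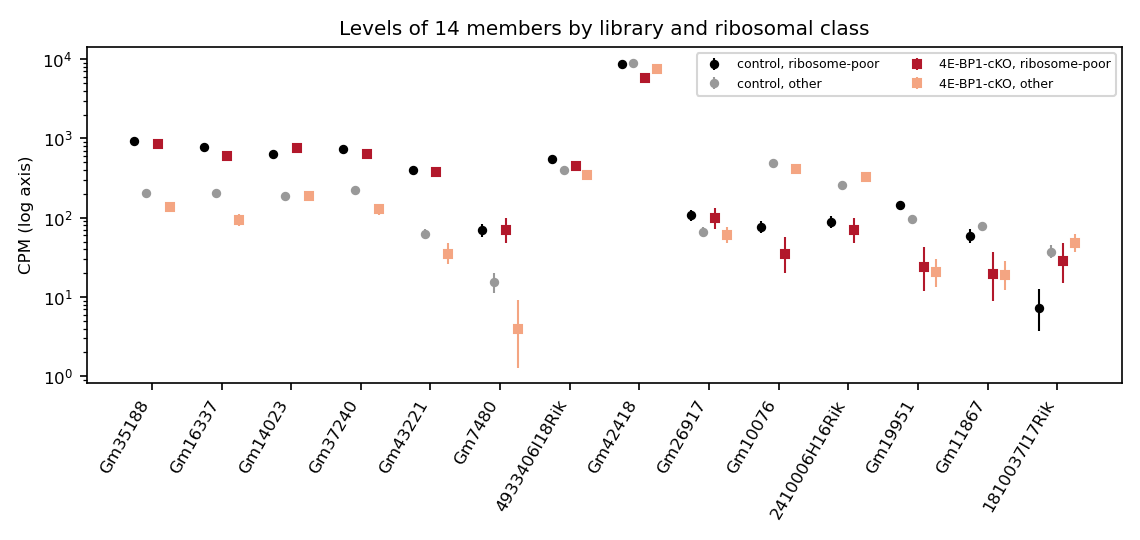
CPM (log axis) of 14 members in ribosome-poor and other cells of each library, with exact Poisson 95% intervals as bars. The first 6 are higher in ribosome-poor cells of both libraries, Gm10076 and 2410006H16Rik are lower there, and Gm19951 and Gm11867 are lower in both classes of the 4E-BP1–cKO library.

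The members that were high in ribosome-poor cells were mostly lncRNAs opposite coding genes. Of the lncRNA members 67 of 149 were higher (45.0%), against 2 of 36 protein-coding members (5.56%). Within the lncRNAs, 64 of 105 that overlap a protein-coding gene on the opposite strand were higher (61.0%), against 3 of 38 with no overlapping coding gene and 0 of 6 that overlap one on the same strand only. The 35 tested lncRNAs that are not members showed 8 higher, all 8 among the 22 opposite a coding gene. Their overlap took more than one form, and of the 64 members, 40 have exons that overlap the partner's exons and 38 lie wholly inside the partner.

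The opposite-strand coding genes did not show the same ratio. Of the 64 pairs, 61 had a partner with at least 200 UMIs itself. Lrmda and Cacnb2 are each the partner of more than 1 of these members and are counted once per pair. In these 61 pairs, 0 partners were over 2-fold higher in ribosome-poor cells in both libraries. The background was 2.93% of all tested genes, and 1.36% of the 4646 tested protein-coding genes that are not members. A count of 0 in 61 therefore says little. Median log2 ratios of the partners were 0.47 and 0.59, against 0.19 in both libraries for all tested genes and 1.87 and 2.10 for the 61 lncRNAs. In 61 of 61 pairs the lncRNA ratio was above that of its partner in both libraries. The gap was at least log2 0.62 in control and 0.52 in 4E-BP1–cKO cells. The members had been selected on this ratio and the partners had not, so the gap is a description. Arhgap5, opposite Gm35188, had 622 and 653 CPM in control and 615 and 669 CPM in 4E-BP1–cKO cells. Il1a, opposite Gm14023, was slightly lower in ribosome-poor cells, at 460 and 554 CPM and at 665 and 783 CPM. The largest gap was between Gm17106, at 88.5 and 18.1 CPM in the control, and Rpl35a, a protein of the large ribosomal subunit, at 256 and 1386 CPM. Rpl35a is 1 of the 77 genes that define the class, so its low level in ribosome-poor cells is built in.

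**Figure D3:**
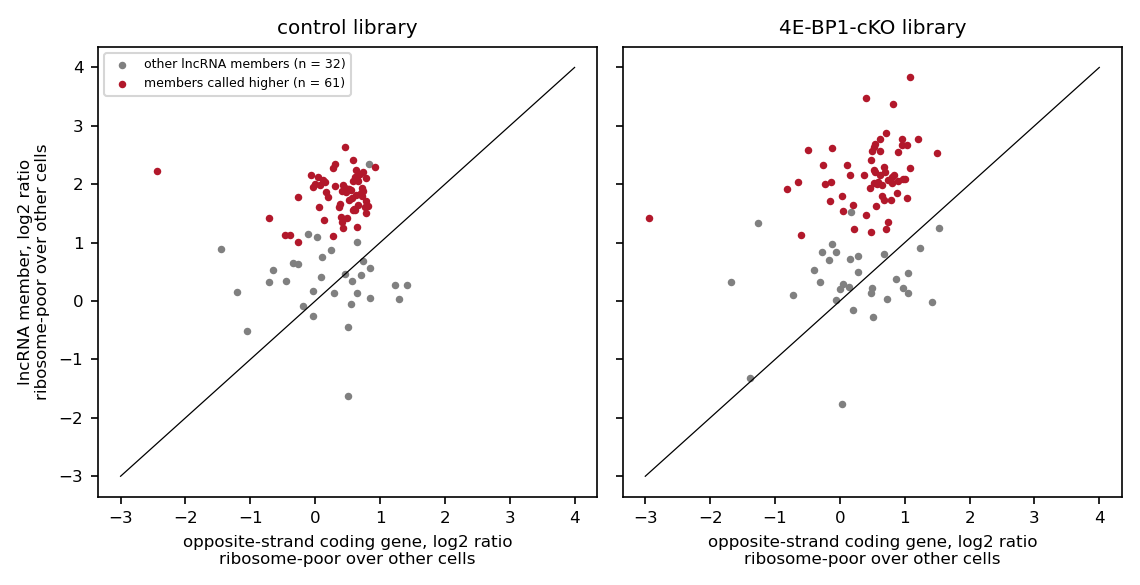
Log2 ratio of ribosome-poor over other cells for lncRNA members (y axis) against the most abundant coding gene on the opposite strand (x axis), for the 93 pairs whose coding gene had at least 200 UMIs, in each library; the line marks equal ratios. All 61 members called higher (red) lie above the line in both libraries.

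Partners were abundant, with a median of 2416 UMIs for the 64 and 566 UMIs for the partners of the 41 lncRNAs opposite a coding gene that were not higher. Where several coding genes lay opposite, the one with the most UMIs was taken as partner, which raises these values. Among the 61 pairs with a partner of at least 200 UMIs, the partner had more UMIs than the member in 55. In the pairs this limit left out it had fewer, with 29 UMIs (Ugt1a7c) beside 779 (Gm20528), 15 (Kcna3) beside 416 (Gm27008) and 31 (Pcdhga12) beside 267 (Gm26672). The strand setting of the authors' counting and whether introns were counted were not stated in the sources used here, so reads of a gene and its opposite-strand partner cannot be fully told apart. Sequence shared with other genes was measured as well, and 5 of the 23 members that share 20% or more of their 31-base words with transcripts of other genes were among the 71. They were Gm37240 (58.4%, mostly with Arfip1), Gm10634 (56.8%), E430024P14Rik (44.6%), Gm14023 (27.7%, mostly with Il1bos) and Gm17106 (25.9%), and their values are uncertain for that reason.

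Of the 71, 7 were not lncRNAs opposite a coding gene. Gm37240, annotated as coding and opposite Fbxw7 (a ubiquitin ligase subunit), had 738 and 227 CPM in control and 641 and 127 CPM in 4E-BP1–cKO cells. 4930469K13Rik, opposite the adaptor gene Lcp2, had 186 and 58.6 CPM and 215 and 55.7 CPM. The lncRNAs Gm26936, Gm27017 and Gm50035 overlap no coding gene, with control ratios of 4.89, 3.62 and 4.81, and Gm20721 and Gm10563 were not matched, with control ratios of 2.84 and 3.82.

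The summed level of the 71 was also taken over finer steps of ribosomal protein share. These members were selected for a difference of over 2-fold at the 2.5% limit in the same cells, so a fall there is built in and the values are a description. In control cells the level was 15456 CPM at a share under 1%, 16913 CPM from 1 to 2.5%, 5930 CPM from 2.5 to 5%, 4141 CPM from 5 to 10% and 2902 CPM over 10%. In 4E-BP1–cKO cells the values were 18047, 13183, 4406, 3482 and 2574 CPM. The 118 members called neither higher nor lower, Gm42418 left out, went from 12242 to 7419 CPM in control and from 11501 to 6365 CPM in 4E-BP1–cKO cells over the whole range. The 7 lower members went from 230 to 1642 CPM in the control. Gm35188 alone stood at 976, 908, 358, 161 and 35 CPM in the control over the same steps.

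**Figure D4:**
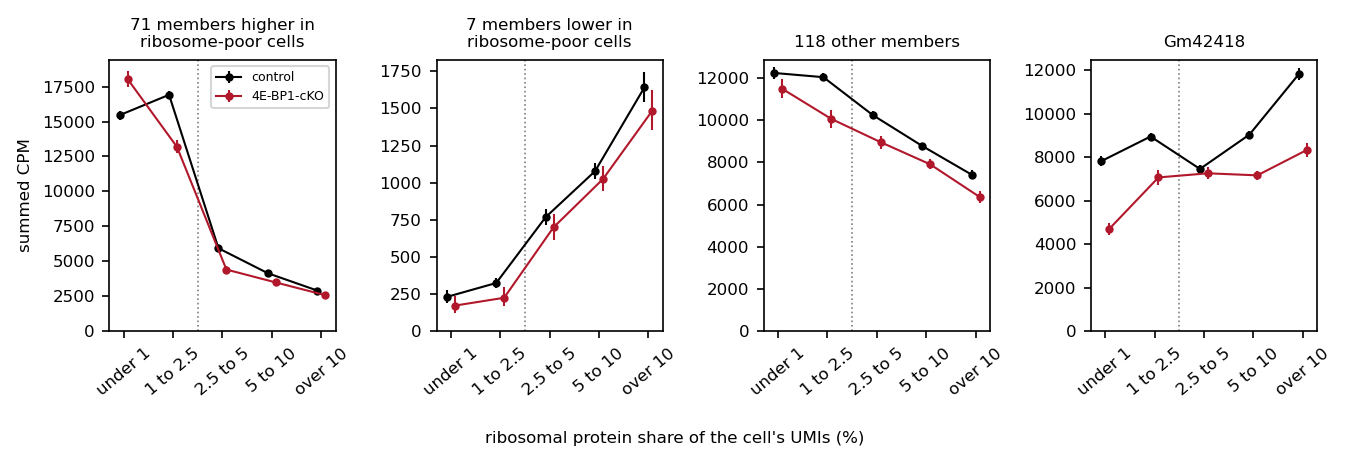
Summed CPM of 4 sets of members (panels) over 5 steps of ribosomal protein share, in control (black) and 4E-BP1–cKO cells (red), with exact Poisson 95% intervals; the dotted line marks the 2.5% limit. The 71 members, selected for a fall across this limit, have 16913 CPM just below it and 5930 CPM just above it in the control.

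Cells were also drawn down to 500 UMIs each. The 71 members were selected for their class ratio in these same cells. The order of the classes is therefore built in, and the values are a description. The 71 members together then had a mean of 9.16 UMIs per ribosome-poor control cell (SD over cells 5.02) and 2.45 (2.74) per other control cell, and 9.67 (5.62) and 1.88 (1.94) in the 4E-BP1–cKO library. None of their UMIs were found in 1.61% and 1.03% of ribosome-poor cells, against 22.8% and 26.0% of other cells. Cells were not replicates and these spreads describe cells of 1 library. At this depth 72 of the 197 members were over 2-fold higher, against a background of 2.96%.

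Gm35188 was itself more often detected in ribosome-poor cells. At least 1 UMI of it was found in 59.0% of ribosome-poor and 37.4% of other control cells, and after thinning to 500 UMIs in 30.3% (26.7 to 34.1) and 8.35% (6.13 to 11.0). The thinned shares in 4E-BP1–cKO cells were 30.8% (24.4 to 37.8) and 6.40% (3.70 to 10.2). In thinned ribosome-poor control cells the other 70 members summed to 19489 CPM with a Gm35188 UMI and 16394 CPM without one, and in 4E-BP1–cKO cells to 21700 and 16637 CPM. Other cells also had more with a Gm35188 UMI. Their values were 6864 CPM with one (44 cells) and 4489 CPM without in the control. In the 4E-BP1–cKO library they were 4875 CPM with one (3467 to 6664, from 39 UMIs in 16 cells) and 3470 CPM without (3141 to 3825). These 2 intervals overlapped. The 70 were selected for their class ratio in these same cells, so the gap between the classes is a description. With every cell holding a Gm35188 UMI left out, 68 members were over 2-fold higher in ribosome-poor cells, against a background of 3.04%.

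The most abundant member did not follow the lncRNAs. Gm42418, which RefSeq lists as Rn18s-rs5, a sequence related to 18S ribosomal RNA at chr17:39846354-39848202 of GRCm38.p6, had 8574 and 9021 CPM in control and 5863 and 7479 CPM in 4E-BP1–cKO cells. Its class ratios were 0.95 (0.931 to 0.970) and 0.784 (0.751 to 0.818). Gm26917, the other member set aside in advance by name, stood at 107 and 66.5 CPM and at 97.7 and 60.4 CPM. Both class ratios of Gm26917 were near 1.6, under the 2-fold limit.

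Several of the most abundant lncRNA members were likewise under the 2-fold limit. 4933406I18Rik, opposite the phosphodiesterase gene Pde3b at chr7:114315479-114415161 of GRCm38.p6, had ratios of 1.37 and 1.30. E230029C05Rik had 1.34 and 1.71, Gm46224 1.36 and 1.03, and Gm47283, now named Erdr1y, 1.61 and 1.25. 31.6% of the words of Gm47283 are shared with other genes, mostly its X-linked copy, so its level is uncertain.

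Members lower in ribosome-poor cells included a close copy of a ribosomal protein mRNA. Gm10076, a pseudogene in RefSeq at chr14:105681826-105682219 of GRCm38.p6, had 77.1 and 486 CPM in control and 34.8 and 412 CPM in 4E-BP1–cKO cells, ratios of 0.158 (0.131 to 0.190) and 0.0843 (0.0478 to 0.138). Rpl41, a protein of the large ribosomal subunit, had log2 ratios of -2.69 and -3.17. Rpl41 is among the 77 genes that define the class, so its low level in ribosome-poor cells is built in. A run of 150 bases is identical in the transcripts of Gm10076 and Rpl41. How far the low ratios of Gm10076 are built in as well was not tested. The opening of that run is shown because reads inside it cannot be assigned to either gene.
Gm10076 and Rpl41: tcacctcgccgcgatcgcctggagaaatga

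The other 6 lower members were 2410006H16Rik, 1110004F10Rik, Gm15564, 0610010K14Rik, Gm11290 and 9530068E07Rik. 2410006H16Rik, a small nucleolar RNA host lncRNA, had 88.5 and 255 CPM in control and 69.5 and 327 CPM in 4E-BP1–cKO cells. Over all 35 tested lncRNAs that are not members, 8 were over 2-fold higher (22.9%). A chosen list of 30 lncRNAs with established names, several of them small nucleolar RNA host genes, had 15 that were tested. Of these 15, 0 were over 2-fold higher, against a background of 2.93%, which says little in so few genes. Over 2-fold lower were 2, Gas5 and Snhg8, against a background of 10.2%. The median log2 ratio of that list was -0.36, but the list was split. Gas5, every Snhg gene and Mir155hg lay below 0, and the rest lay from 0.30 (Tug1) to 0.81 (Dleu2). Among the latter, Malat1, a nuclear lncRNA, stood at 48643 and 27719 CPM in the control.

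Between the libraries the members were lower in 4E-BP1–cKO cells on balance. Their median log2 ratio of 4E-BP1–cKO over control was -0.25 against -0.03 for all tested genes, with 160 below 0 and 37 above. Over 1.5-fold lower were 30 members (15.2%), against a background of 3.21%, and over 1.5-fold higher was 1 member, against a background of 1.19%. For all 30 the counting interval lay below 1, but with 1 library per genotype no spread between mice stands behind it. The UMI limit was applied to the sum of both libraries, and the control held most UMIs. Near the limit a gene higher in the control therefore passed more easily, whether member or not. The library backgrounds here and below were not matched to the members for abundance. The share of tested genes over 1.5-fold lower was 5.01% with at least 100 UMIs and 2.07% with at least 500 UMIs. How much of the excess among members comes from this was not tested.

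The library difference moved with the classes, and their part in it was not tested. Ribosome-poor cells were 43.8% of 4E-BP1–cKO and 54.1% of control cells. Within ribosome-poor cells the median log2 ratio of the members was -0.12 against -0.01 for all tested genes, and in other cells -0.27 against -0.04. For the 71 members high in ribosome-poor cells, the medians were -0.03 in ribosome-poor and -0.39 in other cells. Their summed level was 0.779 times the control over all cells (0.763 to 0.795), 1.17 times at a ribosomal share under 1% and between 0.743 and 0.887 times in the 4 steps above. A single ribosome-poor 4E-BP1–cKO cell held 35216 of the 460367 UMIs of its class, against a median of 1898. It therefore weighs more than other cells in the sums of that class. Within both classes 11 members were over 1.5-fold lower, against a background of 1.06%, and 0 were over 1.5-fold higher in both, against 0.43%.

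**Figure D5:**
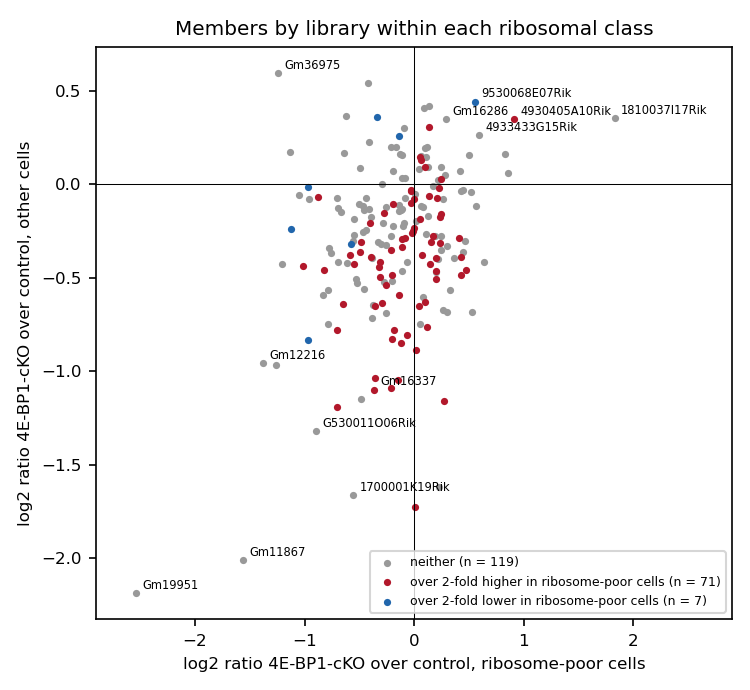
Log2 ratio of 4E-BP1–cKO over control for each member in ribosome-poor (x axis) and other cells (y axis), colored by class call, with named members labelled. Gm19951 and Gm11867 lie far below 0 on both axes, and most red points lie below 0 on the y axis and near 0 on the x axis.

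Gm19951, an lncRNA at chr12:99643096-99647221 of GRCm38.p6, had the lowest ratio among all 4887 tested genes. It had 541 control and 37 4E-BP1–cKO UMIs, or 113 and 21.3 CPM, a ratio of 0.189 (0.132 to 0.264). In ribosome-poor cells it fell from 143 to 23.9 CPM and in other cells from 96.4 to 20.4 CPM. Gm11867 was next, at 347 and 33 UMIs, a ratio of 0.263 (0.178 to 0.377). Neither reached the 2-fold class limit in both libraries.

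Gm12216, opposite the interferon-response transcription factor gene Irf1 at chr11:53785489-53859256 of GRCm38.p6, had 51.4 CPM in control and 21.3 CPM in 4E-BP1–cKO cells, a ratio of 0.415 (0.285 to 0.588). Irf1 itself had 235 and 267 CPM. 1700001K19Rik, opposite the dynein heavy chain gene Dync1h1, had 78.7 and 33.4 CPM, while Dync1h1 had 96.2 and 85.9 CPM. In both pairs the member was lower by over 1.5-fold and the partner was not.

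G530011O06Rik differed from those pairs. It lies on chromosome X, opposite Mid1 (a microtubule-associated ubiquitin ligase), and had 162 and 70.3 CPM, a ratio of 0.433 (0.355 to 0.525). Mid1 moved the same way, from 289 to 157 CPM, and so did Gm15726, a second member opposite Mid1, with a ratio of 0.691 (0.591 to 0.804). Words shared with other transcripts made up 41.2% and 29.9% of G530011O06Rik and Gm15726, so the split of reads among these copies is uncertain.

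Among the 30, 16 were members high in ribosome-poor cells, and Gm16337 was the most abundant lncRNA of them. It had 402 and 230 CPM, a ratio of 0.572 (0.512 to 0.637), with log2 -0.36 in ribosome-poor and -1.10 in other cells. Gm14023 had an even ratio of 0.993 (0.903 to 1.09) and Gm15283 of 0.972 (0.872 to 1.08), so members with the same class pattern differed in their library ratio. Gm35188 lay between, at 0.709 (0.646 to 0.779).

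The single member over 1.5-fold higher was 1810037I17Rik, now Arln, which encodes a small membrane protein that regulates the SERCA calcium pump and lies at chr3:122924397-122926194 of GRCm38.p6. It had 26.9 CPM in control and 42.7 CPM in 4E-BP1–cKO cells, a ratio of 1.59 (1.18 to 2.13). In ribosome-poor cells it rested on 12 and 13 UMIs. Among members above the control in both classes, the next highest were 9530068E07Rik at 1.47 (1.08 to 1.98) and 4930405A10Rik at 1.45 (1.12 to 1.86), then Gm16286 (now Naa12, an N-terminal acetyltransferase subunit) at 1.31 (0.994 to 1.71) and 4933433G15Rik at 1.29 (1.06 to 1.58). Of the words of Gm16286, 60.8% are shared with Txnl4a.

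Of the 23 members that now have another name, 3 passed the 1.5-fold limit between libraries. Of all members 15.2% were lower and 0.508% higher by this limit, against backgrounds of 3.21% and 1.19% of all tested genes. Some new names are still provisional, such as G530011O06Rikx for G530011O06Rik and Gm33989 for Gm37494. 1810026B05Rik, now Chaserr, an lncRNA that represses its neighbor Chd2, had 127 and 139 CPM. 2900097C17Rik, now Norad, an lncRNA that binds Pumilio proteins, had 29.8 and 39.2 CPM, a ratio of 1.32 (0.972 to 1.77). 5430427O19Rik, now Tasl, an adaptor of endosomal Toll-like receptor signaling, had 98.9 and 88.2 CPM, and C330007P06Rik, now Steep1, which acts in STING trafficking, had 74.5 and 80.1 CPM. Besides Arln and G530011O06Rik, the third of the 23 past the limit was Gm4070, now Gvin2, an interferon-inducible large GTPase, at 79.3 and 44.4 CPM. Its ratio was 0.560 (0.432 to 0.717), and 98.7% of its words are shared with other genes, mostly Gvin1.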

How the data were processed

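Droplet-based scRNA-Seq was analysed in 2 libraries, 1 per genotype. The authors aligned the reads to mm10 with Cell Ranger 8.0.1 (per the file headers) and deposited whole-number UMI counts per gene and barcode; the annotation release, strand and intron settings were not given in the sources used here. Barcodes with more than 300 genes and under 5% mitochondrial UMIs were kept, leaving 1147 of 1216 and 445 of 474, and doublets were removed only in an alternative. UMIs were summed per library and class, and ratios were taken on CPM, log2 with a pseudocount of 1 CPM, with exact conditional Poisson intervals. Called means over 1.5-fold between libraries or over 2-fold between classes in both libraries. With 1 library per genotype there was no test and no p-value. The ratio and thinning steps were tested on simulated data.

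The members and lists were chosen with earlier results of these data known. Genes named were the 10 members with the most UMIs, the 5 largest and 5 smallest library ratios among members with the same direction in both classes, the 5 largest and 5 smallest class ratios, Gm35188, Gm42418, Gm26917 and those at the UMI limit; the others, including antisense partners, renamed members and those of Gm36975, were chosen after their values were seen. Marker lists and 30 named lncRNAs were set beside them, and 77 ribosomal protein genes defined the class. Library ratios used cells of both classes, and all 77 ribosomal protein genes were lower in ribosome-poor cells by construction. Members were matched by Ensembl ID to GENCODE vM39, whose build differs from that of the files, for type, strand and transcript sequence only; positions came from RefSeq on GRCm38.p6, by symbol, for 125 members. Shared sequence was measured as 31-base words. Analyses used Python 3.11.15 with scanpy 1.11.5, and edgeR 4.0.16 for TMM factors.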

Additional observations from a re-analysis of the deposited data

Results flagged for a closer look

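Of the 197 members, 1 moved in opposite directions in the 2 ribosomal classes by over 1.5-fold each. Ratios of opposite sign, of any size, were found in 71 members. The share of all tested genes that did either was not counted, so whether this is unusual cannot be said. Gm36975 had a log2 ratio of 4E-BP1–cKO over control of -1.24 in ribosome-poor cells (122 and 14 UMIs) and 0.60 in other cells (43 and 27 UMIs). The difference between the classes was not tested.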

How the results depend on the processing

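Over the alternatives run, no log2 ratio that passed its limit in the main setting changed direction. Counts and medians could not be judged in this way. Of their values under the alternatives, 25 moved by more than a set margin and 83 did not. Among the ratios of named genes, 16 values fell back under the limit and 12 rose past it. With at least 100 UMIs there were 394 members, of which 118 were higher and 12 lower in ribosome-poor cells (median log2 0.55; backgrounds 3.27% and 9.54% of tested genes) and, between libraries, 72 lower, 7 higher (backgrounds 5.01% and 1.87%) and 26 lower in both classes. With at least 500 UMIs there were 80 members. By class 36 were higher and 2 lower (median 0.80), against backgrounds of 2.60% and 10.7%. Between libraries 11 were lower and 0 higher, against backgrounds of 2.07% and 0.975%, and 5 were lower in both classes. Fewer or more genes enter under these limits. For members lower in both classes, a background was taken in the main setting only (1.06% of all tested genes). Their counts under the alternatives, here and below, therefore stand without one. Thinning to 500 UMIs left 4 members lower in ribosome-poor cells, against a background that rose from 10.2% to 15.2%. It raised the median class log2 ratio from 0.67 to 0.80. It also gave 8 members higher in 4E-BP1–cKO cells, against a background that rose from 1.19% to 3.34%. The cause was not tested. The 4E-BP1–cKO library alone gave a median of 0.81, and cells of 1500 to 4000 UMIs, chosen after seeing the data, gave 0.91 and 1 confined member. A library limit of 2-fold left 7 lower and 0 higher, against backgrounds of 0.430% and 0.184%, and 2 lower in both classes. The member higher in 4E-BP1–cKO cells was lost with a pseudocount of 10 CPM (0, background 0.716%). The mean of the ratios within classes gave 2, against a background of 1.23%. The count of members higher in ribosome-poor cells was 66 to 87 under every setting other than the UMI limits, with 75 in the control library alone, over backgrounds of 2.54% to 8.65%; the background was 8.41% in the 4E-BP1–cKO library alone and 8.65% in cells of 1500 to 4000 UMIs. Confined members numbered 0 at 90% and at 99%. Scrublet called 4 control and 11 4E-BP1–cKO barcodes. No paired analysis was possible because each genotype has 1 library. Depth limits the 4E-BP1–cKO values most, where 21 of the 197 members had under 50 UMIs.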
